A study of Mus musculus with 60 samples.

Results

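The Src family kinases Src, Fyn, Yes1, Lyn, Fgr and Lck and their inhibitor Csk were followed across the liver and 2 fat depots, subcutaneous and visceral, of mice. The 7 genes were taken by symbol from a table of 54232 gene IDs, where each symbol had 1 ID. All 7 passed the filter on low counts in both fat depots, and 6 passed it in liver, where Lck did not. The broadly expressed Src, Fyn and Yes1 were set against Lyn, Fgr and Lck, which are typical of blood cells.

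Src family kinases are tyrosine kinases anchored to the inner face of the cell membrane, where they pass signals on from integrins, growth factor receptors and immune receptors. Csk holds them inactive by phosphorylating a tyrosine in their tail, and phosphatases such as Ptprc (CD45) and Ptpra remove that phosphate. Lyn and Fgr act in myeloid cells (Lyn also in B cells), and Lck starts signalling at the T cell receptor. Src has been reported to bind the sodium pump, the Na,K-ATPase, and NaKtide is a peptide from the pump that was designed to block Src through this contact. RNA levels do not show kinase activity, which was not measured here.

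Mice ate a control diet with 11% fat or a Western diet with 42% fat for 12 weeks. In the NaKtide groups the food also held 300 mg/kg doxycycline, which switches the transgene on. Each tissue thus had 4 groups, namely control diet, control diet with NaKtide, Western diet, and Western diet with NaKtide, with 5 libraries in each and 60 in all. The labels name no strain, age or promoter for the transgene, do not say whether mice without NaKtide received doxycycline, and do not tie libraries of different tissues to 1 mouse. The transgene was not measured here, so no gene checked the NaKtide labels, and every NaKtide difference includes any difference made by doxycycline. Depth was 3.18 to 9.78 M counts per library.

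Markers listed for each tissue were present where the labels place them. The 10 hepatocyte markers summed to at least 33200 CPM (counts scaled to library depth) in every liver library, and the 10 adipocyte markers to at least 13100 CPM in every subcutaneous library. In visceral fat the adipocyte sum went down to 1400 CPM, in a control-diet library. Many fat libraries held RNA of a neighbouring tissue. Skeletal muscle markers summed to 8040 to 60100 CPM in subcutaneous fat on control diet, to 116 to 258000 CPM on control diet with NaKtide, but only to 83.7 to 259 CPM on Western diet. Epididymis and testis markers passed 1000 CPM in 8 visceral libraries, of which 3 on control diet and 1 on Western diet were without NaKtide, and 1 on control diet and 3 on Western diet were with it. Where leaving out these 8 libraries changed a call of a member, the value without them is given. Leaving them out takes 3 of the 5 libraries each from control diet and from Western diet with NaKtide. Values without them thus rest on few libraries in these groups. The same groups had the lower Fgr, Lyn and Csk levels in the visceral comparisons below. Sums of markers are given over all libraries. In bulk tissue, more cells of a type and more RNA per cell cannot be told apart.

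On GRCm38 the broad kinases lie on 3 chromosomes: Src (ENSMUSG00000027646) at chr2:157418444-157471862, Fyn (ENSMUSG00000019843) at chr10:39368855-39565381 and Yes1 (ENSMUSG00000014932) at chr5:32611171-32687057, all on the plus strand. Lyn (ENSMUSG00000042228, chr4:3678115-3813122) and Fgr (ENSMUSG00000028874, chr4:132974095-133001910) are on the plus strand of chromosome 4, and Lck (ENSMUSG00000000409, chr4:129548344-129573641) is on its minus strand. Csk (ENSMUSG00000032312) is at chr9:57626646-57653631, minus strand. All are protein-coding. Noncoding genes of the opposite strand overlap Fyn, Yes1 and Lyn, and Gm43694 and Mir8119 overlap Yes1 and Lck on the same strand. The use of strand in counting is not given in the sources used here, so reads of overlapping genes cannot be told apart from those of the kinases.

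Levels are given first in FPKM, fragments scaled for transcript length and library depth, which allows genes to be compared. Csk was the most abundant of the 7 in each tissue, at 27.1 ± 3.35 FPKM in liver, 19.5 ± 6.06 in subcutaneous fat and 18.1 ± 6.76 in visceral fat (mean ± SD over the 20 libraries of a tissue). Lyn came next in each tissue, with 6.65 ± 1.1, 6.98 ± 1.52 and 8.67 ± 4.5 FPKM in the same order. The mean level of Src was lowest in liver and highest in visceral fat, with 0.668 ± 0.519 FPKM in liver, 2.78 ± 1.39 in subcutaneous and 4.39 ± 1.31 in visceral fat. Fyn, a membrane kinase found in many cell types including T cells and neurons, had 1.33 ± 0.522 FPKM in liver and 4.46 ± 0.867 and 4.54 ± 1.3 in the fat depots. Yes1, a close relative of Src, had similar means in the tissues, at 1.02 ± 0.297, 1.02 ± 0.214 and 1.04 ± 0.325 FPKM. Fgr had 1.21 ± 0.701, 0.663 ± 0.431 and 1.26 ± 0.991 FPKM. Lck had 0.314 ± 0.161 FPKM in liver and a median of 0.934 in subcutaneous fat, where 1 library had no Lck count and another reached 8.59, and 1.02 ± 0.881 in visceral fat. In their means over a tissue Fyn and Src lay below Lyn, but in visceral fat on control diet Src had a mean of 5.73 FPKM and Lyn of 4.99.

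**Figure D1:**
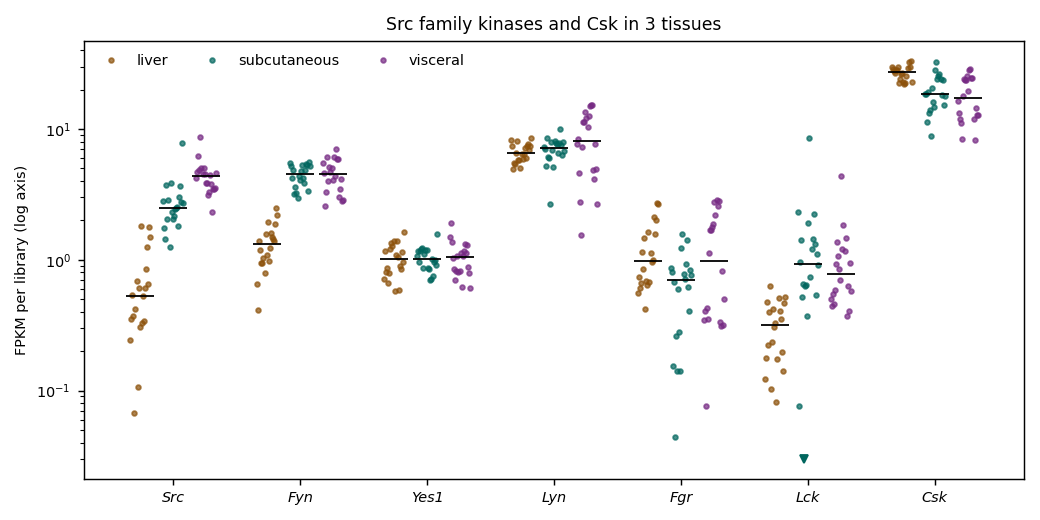
FPKM of the 7 genes in each of 60 libraries on a log axis, by tissue, with black lines at the medians of 20 libraries and a triangle for the subcutaneous library without a Lck count. Src and Fyn lie lower in liver than in fat, Yes1 lies at a similar level in all tissues, and the medians of Csk lie above those of the kinases.

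The spread within a group was wide against the steps between groups. The 12 groups were ordered by mean FPKM for each gene, which gives 11 pairs of neighbours. All 11 pairs overlapped in their library values for Yes1, Lyn, Fgr, Lck and Csk. For Src and for Fyn 10 of 11 overlapped, and the exception was the step from the lowest fat group to the highest liver group. Src was highest in visceral fat on control diet (5.73 ± 1.78 FPKM, n = 5) and lowest in liver on control diet (0.314 ± 0.173). Csk was highest in liver on Western diet with NaKtide (29.6 ± 4.08) and lowest in visceral fat on Western diet with NaKtide (12.1 ± 2.34).

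The stretch before the start site held more CG pairs in Src, Fyn and Yes1 than in Fgr and Lck. RefSeq promoter windows on GRCm38.p6 were found for 6 of the 7 genes, all but Lyn, and the 250 bases upstream of the start were searched for the letters CG, which are the same on both strands. The median over 32851 such windows was 6 CG pairs, and 92.1% held at least 1. The Src window held 40 (1.31% of windows had as many or more), the Yes1 window 37 (2.2%) and the Fyn window 21 (16.3%). The Fgr window held 9 (40.3%) and the 2 Lck windows 3 (71%) and 1 (92.1%), while the 2 Csk windows held 16 (25.4%) and 7 (46.3%). The windows of Src and Fyn, the Csk window with 16 and the Lck window with 3 lie inside the gene positions given above. The windows of Src, of Fgr and of the Lck start inside the gene are shown 5′ to 3′ as the contrast between a broad, a myeloid and a lymphoid member, with each CG in capitals.
Src, chr2:157424043-157424292, plus strand: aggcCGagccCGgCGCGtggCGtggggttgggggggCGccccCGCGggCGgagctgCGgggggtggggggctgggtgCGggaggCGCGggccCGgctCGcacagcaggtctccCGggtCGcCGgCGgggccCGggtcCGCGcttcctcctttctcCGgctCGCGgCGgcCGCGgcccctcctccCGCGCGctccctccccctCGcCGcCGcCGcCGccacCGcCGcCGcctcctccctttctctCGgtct
Fgr, chr4:132973845-132974094, plus strand: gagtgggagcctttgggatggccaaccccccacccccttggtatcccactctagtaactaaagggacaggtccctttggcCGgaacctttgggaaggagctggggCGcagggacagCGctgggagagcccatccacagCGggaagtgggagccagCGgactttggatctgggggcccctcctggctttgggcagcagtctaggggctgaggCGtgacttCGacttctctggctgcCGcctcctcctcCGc
Lck, chr4:129558373-129558622, minus strand: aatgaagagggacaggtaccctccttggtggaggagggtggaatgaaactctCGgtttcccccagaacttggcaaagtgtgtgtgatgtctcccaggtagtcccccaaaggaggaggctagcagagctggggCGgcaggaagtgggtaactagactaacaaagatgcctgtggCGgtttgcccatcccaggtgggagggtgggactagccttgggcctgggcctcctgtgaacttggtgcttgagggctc
These counts describe the windows alone, and no binding or methylation was measured here.

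Tissues were compared on control diet without NaKtide, in a fit over all 60 libraries. Values from here on are log2 differences ± standard error from edgeR's quasi-likelihood test, with p adjusted by Benjamini-Hochberg over all genes tested. Src was 2.96 ± 0.42 lower in liver than in subcutaneous fat (-2.96, adjusted p = 3.1e-08) and Fyn was lower too (-2.38 ± 0.23, adjusted p = 1.3e-12). Lck was also lower (-1.98 ± 0.62, adjusted p = 0.006, or 0.064 with voom), and Csk was higher (0.79 ± 0.17, adjusted p = 9.9e-05). These were 4 of 7 members, where 56.5% of all genes tested passed, so the share says little about the family. Src had 1 to 6 counts in a control-diet liver library and Lck had 1 to 4, which makes these liver levels imprecise.

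Against visceral fat, liver had less Src (-4.20 ± 0.42, adjusted p = 3.7e-12), Fyn (-2.28 ± 0.23, adjusted p = 5e-12) and Yes1 (-0.64 ± 0.24, adjusted p = 0.017). It had more Fgr (1.21 ± 0.44, adjusted p = 0.014) and Csk (1.22 ± 0.17, adjusted p = 3.3e-08). That is 5 of 7 members against 65.5% of all genes. The calls of Yes1 and Fgr were lost without some single libraries: Yes1 without the fifth control-diet liver or the second visceral one, Fgr without the same liver or the third visceral one. Without the libraries that held tract tissue Fgr stood at 1.07 ± 0.55 (adjusted p = 0.09). Voom did not call Fgr either, and Yes1 lost its call without a filter on low counts.

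Between the fat depots on control diet, Src was higher in visceral fat by 1.21 ± 0.27 (adjusted p = 0.0039), and no other member passed (1 of 7, against 27.2% of all genes). Without the tract-containing libraries the Src difference was 0.88 ± 0.34 (adjusted p = 0.32), in a fit where 3 genes in all passed. On Western diet 0 of 7 members passed in edgeR's test, with 2.08% of all genes passing. At an unadjusted p under 0.05 there were 3 members, DESeq2 called 2 and voom called 5. Over all 17788 genes tested 20.2% had such an unadjusted p, DESeq2 called 1632 and voom 7956. Without the tract-containing libraries Lyn (0.93 ± 0.18, adjusted p = 0.002) and Fgr (1.31 ± 0.41, adjusted p = 0.045) were higher in visceral fat, in a fit that called 1348 genes.

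The balance between the groups of kinases differed most in visceral fat. Src, Fyn and Yes1 together made up 67.2 ± 12.6% of the summed FPKM of the 6 kinases in visceral fat on control diet (SD, n = 5), but 36.6 ± 2.07% on Western diet. With NaKtide the order was turned, with 42.6 ± 5.26% on control diet and 57.3 ± 7.79% on Western diet. Lyn, Fgr and Lck summed to 5.82 ± 2.95 FPKM on control diet and to 18.3 ± 1.52 on Western diet, while the broad kinases summed to 11.5 ± 2.44 and 10.6 ± 1.44. The share moved with the leukocyte kinases and much less with the broad ones. The 3 tract-containing control libraries had the lowest leukocyte sums (5.24, 3.66 and 2.48 FPKM) and the highest shares (66, 71.6 and 86.3%). The other 2 control libraries had leukocyte sums of 8.48 and 9.23 FPKM and shares of 57 and 55%, still above every Western diet library. Group means were 41.4 to 54.3% in subcutaneous fat and 22.5 to 28.9% in liver. The share is a description, with no test.

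**Figure D2:**
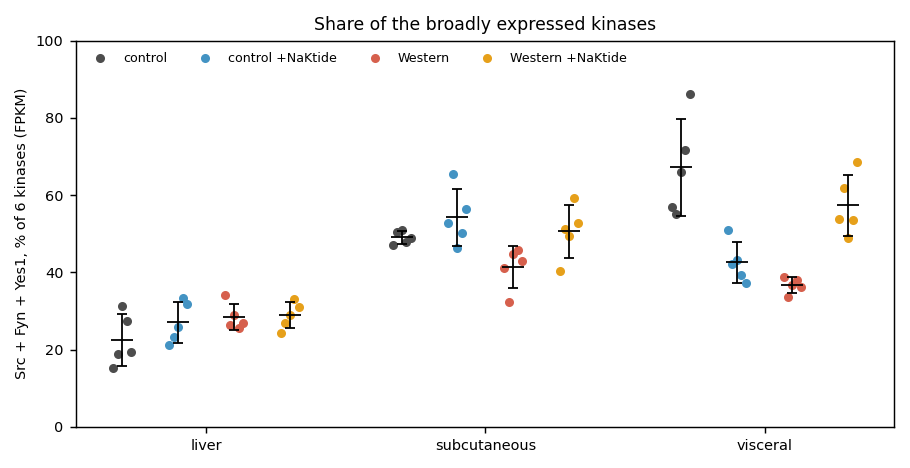
Share of Src, Fyn and Yes1 in the summed FPKM of 6 Src family kinases, in percent, for each library (points) with the group mean ± SD (n = 5). Visceral libraries on control diet (55 to 86.3%) and on Western diet (33.5 to 38.9%) do not overlap.

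In visceral fat, Western diet without NaKtide changed 5 of 7 members against 24.9% of all genes tested. Lyn, Fgr, Lck and Csk rose (4 of 7, with 10.5% of all genes higher) and Src fell (1 of 7, with 14.3% lower). The 5 libraries on Western diet did not overlap the 5 on control diet for these 4 genes, as was so, in the higher direction, for 8.02% of all genes. Libraries are compared as CPM scaled within the tissue.

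Fgr, a kinase of neutrophils, monocytes and macrophages that acts below integrins and Fc receptors, moved most. It had 1.7, 2.02, 0.392, 2.13 and 1.61 CPM in the control-diet libraries and 13.4, 10.9, 14.2, 12.9 and 14 CPM on Western diet. Every Western diet library lay far above every control one. The log2 change was 3.04 ± 0.37 (adjusted p = 0.00012), on 2 to 17 counts per control library and 87 to 134 per Western diet library.

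Lyn, which both starts and restrains signalling in myeloid and B cells, had 39.7, 43.7, 25.3, 14.5 and 7.37 CPM on control diet and 53.6, 66.5, 78.8, 79.8 and 80.4 CPM on Western diet. Control libraries were spread widely and all lay below the lowest Western diet library. The change was 1.46 ± 0.37 (adjusted p = 0.013), and 0.87 ± 0.15 (adjusted p = 0.0027) without the tract-containing libraries. Lck had 1.89, 1.67, 2.16, 1.75 and 2.01 CPM on control diet and 16, 4.51, 7.04, 4.42 and 5.6 on Western diet. The first Western diet library stood apart, and the others were still above all controls. Its change was 1.98 ± 0.37 (adjusted p = 0.0018).

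Csk, the inhibitor, rose with them. It had 78.6, 63.5, 59.8, 54.1 and 36.8 CPM on control diet and 91.3, 137, 139, 120 and 118 on Western diet, again without overlap. The change was 1.05 ± 0.19 (adjusted p = 0.0018).

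Among the broad kinases, Src had 23.4, 26.4, 36.7, 27.5 and 44.2 CPM on control diet and 21.2, 17.7, 18.7, 25.3 and 21.5 CPM on Western diet. The groups overlapped, and the highest values were from 2 control libraries that held tract tissue, the third and the fifth. The change was -0.60 ± 0.19 (adjusted p = 0.033). Without the tract-containing libraries it was -0.27 ± 0.21 (adjusted p = 0.42). The call was also lost with voom, with a replicate block, without a filter on low counts and with only the groups compared. Of these 7 alternative fits 2 kept it. Leaving out 1 library lost the call in 6 of 10 fits. These were the fits without control-diet library 3 (adjusted p = 0.079) or 5 (0.078), or without Western diet library 1 (0.05), 2 (0.053), 3 (0.1) or 5 (0.079). The median change of all visceral genes was -0.217, and 0 without the tract-containing libraries. Fyn (0.44 ± 0.20, adjusted p = 0.1) and Yes1 (-0.33 ± 0.27, adjusted p = 0.35) did not pass.

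**Figure D3:**
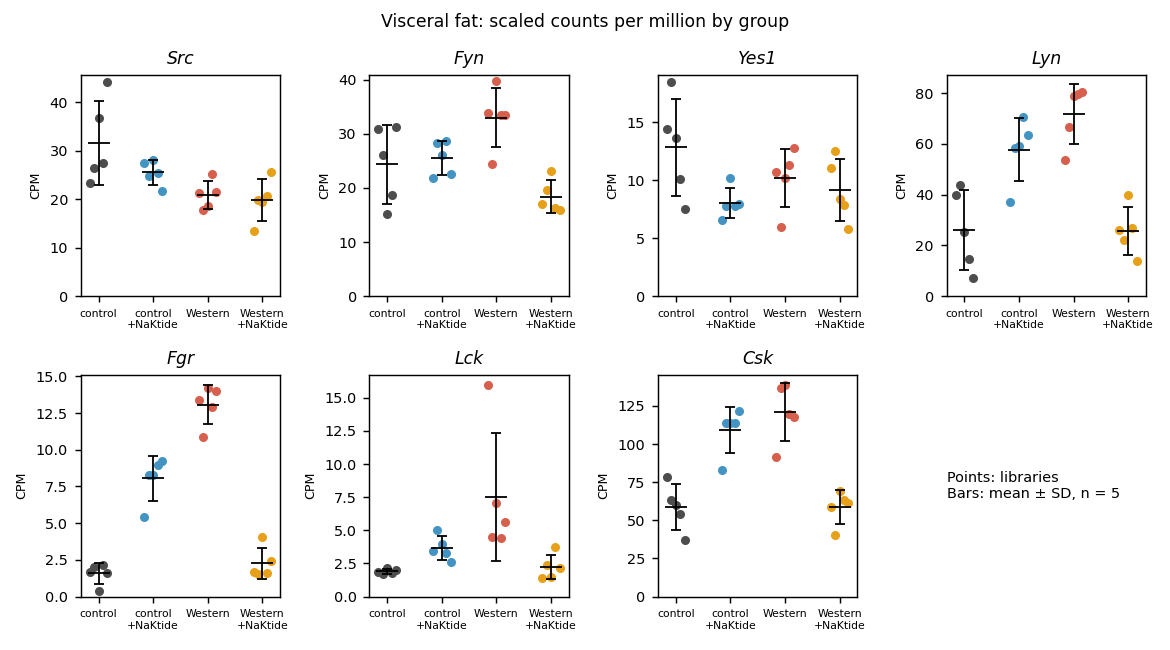
TMM-scaled CPM of the 7 genes in visceral fat, with a point for each library and bars for the mean ± SD (n = 5). For Fgr and Csk the control diet with NaKtide and the Western diet groups lie high and the other two groups lie low, while Src shows no such pattern.

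NaKtide on Western diet went with lower levels of 5 of 7 members, against 13.2% of all genes in either direction and 6.95% lower. All 5 had separate groups, as did 7.58% of all genes in that direction. Fgr had 1.67, 1.55, 4.03, 1.62 and 2.45 CPM in the Western diet libraries with NaKtide, below every Western diet library without it (-2.52 ± 0.36, adjusted p = 0.00049). Lyn had 26, 22, 39.9, 26.7 and 13.8 CPM (-1.48 ± 0.37, adjusted p = 0.016), a call lost without a filter on low counts. Csk had 58.6, 40.1, 69.3, 63.6 and 61.1 CPM (-1.05 ± 0.19, adjusted p = 0.0027). Fgr, Lyn and Csk thus lay in or near the range of the control diet libraries.

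Lck was lower by 1.75 ± 0.36 (-1.75, adjusted p = 0.0055) and lost its call without the tract-containing libraries (-1.14 ± 0.42, adjusted p = 0.073). Fyn fell here as well. It had 33.9, 24.4, 39.7, 33.4 and 33.4 CPM on Western diet and 17.1, 19.7, 23.1, 16.2 and 15.9 CPM with NaKtide. The groups lay apart by a narrow gap, and the change was -0.84 ± 0.20 (adjusted p = 0.011), or -0.97 ± 0.21 without the tract-containing libraries. Src, the kinase NaKtide is aimed at, had 13.4, 19.9, 19.5, 20.6 and 25.7 CPM with NaKtide, overlapping the libraries without it (-0.08 ± 0.19, adjusted p = 0.82). Yes1 did not pass either (-0.16 ± 0.27, adjusted p = 0.73).

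On control diet the NaKtide difference had the opposite sign. Fgr was higher, with 5.43, 8.27, 8.31, 8.97 and 9.24 CPM against the control values above (2.34 ± 0.36, adjusted p = 0.00086). Csk was higher as well, with 83.3, 114, 114, 114 and 122 CPM (0.90 ± 0.19, adjusted p = 0.0077). For both genes, and for Lck (0.94 ± 0.36, adjusted p = 0.11), all 5 NaKtide libraries lay above all 5 controls, as was so for 5.95% of all genes. Fgr and Csk were 2 of 7 members, against 7.15% of all genes and 5.26% higher. Without the tract-containing libraries 4 of 7 passed: Fgr, Csk, Lyn at 0.59 ± 0.15 (adjusted p = 0.021) and, lower, Yes1 at -0.97 ± 0.27 (adjusted p = 0.035). That fit called 2288 genes, where the full one called 1233. Csk lost its call without the second NaKtide library, at an adjusted p of 0.051, and also without a filter on low counts. Src (-0.31 ± 0.19, adjusted p = 0.28) and Fyn (0.07 ± 0.20, adjusted p = 0.82) did not pass.

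With NaKtide in both groups, Western diet went with less Fgr (-1.82 ± 0.35, adjusted p = 0.0062) and less Csk (-0.90 ± 0.19, adjusted p = 0.011), 2 of 7 against 4.82% of all genes and 3.49% lower. Without the tract-containing libraries Lyn (-1.26 ± 0.15, adjusted p = 4e-04) and Fyn (-0.66 ± 0.20, adjusted p = 0.049) passed too. That fit called 2434 genes, where the full one called 830. The Csk call was lost without the second control diet library with NaKtide, at an adjusted p of 0.07, and also without a filter on low counts. These contrasts share libraries with those above, so they are not separate observations.

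The diet effect under NaKtide minus that without it was tested directly. It was negative for Fgr (-4.85 ± 0.51, adjusted p = 6.5e-06), Lck (-2.70 ± 0.51, adjusted p = 0.0011), Lyn (-2.63 ± 0.53, adjusted p = 0.0016), Csk (-1.95 ± 0.27, adjusted p = 7.8e-05) and Fyn (-0.91 ± 0.28, adjusted p = 0.021). That is 5 of 7, against 32.2% of all genes and 13.4% lower. Fyn lost its call with a replicate block. The same 5 passed without the tract-containing libraries, in a fit that called 4740 genes. That fit kept few libraries on control diet and on Western diet with NaKtide. Src (0.23 ± 0.27, adjusted p = 0.54) and Yes1 (0.52 ± 0.38, adjusted p = 0.31) did not pass.

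**Figure D4:**
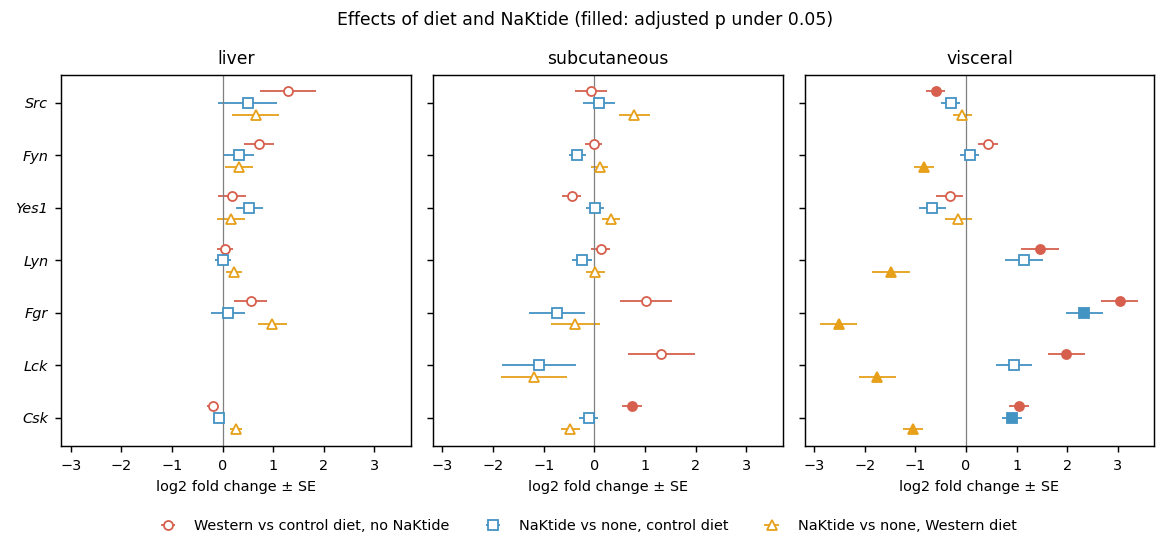
Log2 fold changes ± standard error of the 7 genes for diet and for NaKtide on each diet, by tissue, with filled symbols where the adjusted p was under 0.05 and Lck absent from liver, where it was not tested. In visceral fat the leukocyte kinases and Csk lie to the right for Western diet and for NaKtide on control diet and to the left for NaKtide on Western diet.

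Markers of leukocytes, and of fibroblast progenitors, moved with the same groups. The 15 macrophage and monocyte markers summed to 264 to 1060 CPM in visceral fat on control diet and to 2490 to 5430 on Western diet. With NaKtide the sums were 2840 to 4090 CPM on control diet and 602 to 1990 on Western diet. No marker of the list was at 0 counts throughout any of these groups. On Western diet 12 of 15 rose, with NaKtide on Western diet 12 fell, and with NaKtide on control diet 12 rose. Over all genes 10.5% rose, 6.95% fell and 5.26% rose in these comparisons, in the same order. The neutrophil markers summed to 1.34 to 4.7 CPM on control diet, 12.9 to 20.7 on Western diet, and 22.8 to 44.2 on control diet with NaKtide, and 1.83 to 8.81 on Western diet with NaKtide. Of 9 neutrophil markers 2 passed the filter on low counts, and 2 or 3 were at 0 counts throughout a visceral group.

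On Western diet, 6 of 10 T and NK cell markers tested rose, and 4 of 7 B cell markers, against 10.5% of all genes. The T and NK cell sum had a median of 54.6 CPM (46.3 to 84.8) on Western diet and of 16.5 CPM on control diet, where a tract-containing library reached 556. The B cell sum was 15.5 to 33.8 CPM against 5.48 to 24.6. Fibroblast progenitor markers moved too, with sums of 200 to 1610 CPM on control diet, 2210 to 4650 on Western diet, 1920 to 4010 on control diet with NaKtide and 813 to 4080 on Western diet with NaKtide, and 6 of 10 rose on Western diet. The part of these cells in the kinase results was not tested. With NaKtide the B cell sums in visceral fat were 15.4 to 24.1 CPM on control diet and 5.33 to 26 on Western diet. The T and NK cell sums were 28.2 to 52 and 12.7 to 527 CPM in the same order, so both overlapped. Medians were higher on control diet for both (20.1 against 8.1 CPM, and 38.3 against 17.2). The 2 visceral groups with NaKtide thus had macrophage and neutrophil markers in the opposite order of diet to the 2 groups without it. A possible exchange of the labels of these groups was not tested.

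**Figure D5:**
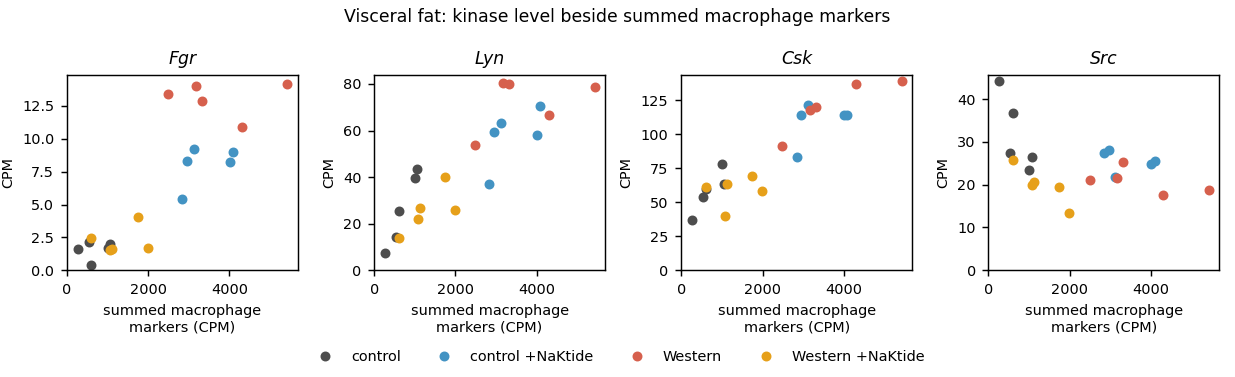
CPM of Fgr, Lyn, Csk and Src in each visceral library (points, coloured by group) against the summed CPM of 15 macrophage and monocyte markers. Fgr, Lyn and Csk lie high in the libraries with high sums, which are those on Western diet and on control diet with NaKtide, and the highest Src values lie at the low end.

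Other genes of the pathway were taken as lists. Among Src family members outside the 7, the B cell kinase Blk rose in visceral fat on Western diet (1.92 ± 0.51, adjusted p = 0.016), from 0.409 ± 0.15 to 1.61 ± 0.795 CPM, and the epithelial kinase Frk did not pass (-1.88 ± 0.77, adjusted p = 0.076). Blk was lower with NaKtide on Western diet (-1.63 ± 0.50, adjusted p = 0.04). Its control-diet level lay near the floor, so it met the filter on low counts through libraries of other groups. Blk is also in the list of B cell markers, so its change is not a separate observation from theirs.

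Of 15 Csk partners and phosphatases, 8 rose on Western diet and 0 fell, against 10.5% and 14.3% of all genes. Their median change was 0.87, against -0.217 over all genes. The strongest by p were Ptprc (3.73 ± 0.61, adjusted p = 0.00068), Matk, a Csk relative of blood cells (1.89 ± 0.37, adjusted p = 0.0028), and Ptprj, a receptor phosphatase (1.25 ± 0.28, adjusted p = 0.0058). Csk, which adds the phosphate on the tail tyrosine, and Ptprc, which removes it, both had more RNA. With NaKtide on Western diet 7 of 15 fell, against 6.95% of all genes.

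Of 24 tested partners at immune receptors, 16 rose on Western diet and 0 fell (median change 1.75), against 10.5% and 14.3% of all genes. They included Fcgr1, a high-affinity IgG receptor (2.97 ± 0.36, adjusted p = 0.00012), Itgb2, the beta chain of leukocyte integrins (3.47 ± 0.44, adjusted p = 0.00014), and the adaptor Lat2 (3.62 ± 0.49, adjusted p = 0.00021). With NaKtide on Western diet 16 of 24 fell, against 6.95% of all genes.

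Substrates and adaptors of Src moved less evenly, with 7 of 19 tested higher and 1 lower on Western diet (median change 0.58). Over all genes 10.5% were higher and 14.3% lower. Stat3, a transcription factor that Src can phosphorylate, rose by 1.30 ± 0.24 (adjusted p = 0.0017), Ptk2b, the focal adhesion kinase relative Pyk2, by 1.11 ± 0.21 (adjusted p = 0.0018) and Egfr by 1.91 ± 0.39 (adjusted p = 0.0034). The one that fell was Ctnnd1, p120 catenin of cell junctions (-0.96 ± 0.26, adjusted p = 0.017).

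Of 9 Na,K-ATPase genes tested, 2 rose and 0 fell on Western diet (median change 0.17), against 10.5% and 14.3% of all genes. Of these, the FXYD protein Fxyd5, a small partner of the pump, rose by 1.58 ± 0.31 on Western diet (adjusted p = 0.0025), from 36.4 ± 18.8 to 109 ± 30.2 CPM. With NaKtide on Western diet 2 of 9 fell and 0 rose, against 6.95% and 6.23% of all genes. Fxyd5 was lower there (-1.26 ± 0.30, adjusted p = 0.013), at 45.4 ± 7.4 CPM.

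In subcutaneous fat 1 member was called in any comparison within the tissue. Csk rose on Western diet, from 83.7, 82.1, 52.1, 82.6 and 59.7 CPM to 126, 145, 107, 113 and 114 CPM. All Western diet libraries lay above all controls, and the change was 0.75 ± 0.20 (adjusted p = 0.031). It was 1 of 7 members, against 5.61% of all genes. With the muscle marker sum as a covariate it was 0.16 ± 0.26 (adjusted p = 0.83), in a fit that called 1 gene in all. All 15 muscle markers were lower on Western diet, and their part in the result was not tested further. The call was also lost without control-diet library 3 (adjusted p = 0.091) or 5 (0.092), or without Western diet library 1 (0.067), 2 (0.071), 3 (0.063) or 4 (0.068). Fgr had a mean of 2.34 ± 1.76 CPM on control diet and 4.8 ± 1.69 on Western diet, without passing (1.02 ± 0.51, adjusted p = 0.23). Yes1 had 6.19 to 8.96 CPM on Western diet and 8.96 to 11.1 on control diet, and did not pass (-0.45 ± 0.18, adjusted p = 0.14). Lck was at 30.2 CPM in the second Western diet library and at 2.55 to 6.57 in the others (1.32 ± 0.66, adjusted p = 0.23). Src did not pass (-0.07 ± 0.31, adjusted p = 0.92).

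NaKtide gave no call among the members or among all genes in subcutaneous fat with edgeR. On Western diet 0 of 7 members and 0% of all genes passed, and DESeq2 and voom called 0 members. An unadjusted p under 0.05 was found for 12.3% of all genes and for 2 members. Of these 2 members, Src had 15.7, 18.8, 14.2, 39.8 and 13.9 CPM with NaKtide and 11.2, 12.8, 12.8, 13.3 and 9.17 without. The groups did not overlap, the fourth NaKtide library stood far above the others, and the adjusted p was 0.3 (0.79 ± 0.31). The other was Csk (-0.47 ± 0.19, adjusted p = 0.32). On control diet 0 of 7 members passed, 0 had an unadjusted p under 0.05, and DESeq2 and voom called 0 members. For diet under NaKtide 0 of 7 passed, with 2 at an unadjusted p under 0.05, as were 24.5% of all genes. For the interaction 0 of 7 passed, with 0 at such an unadjusted p (11.2% of all genes). DESeq2 and voom called 0 members in each.

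In liver, Fgr and Src were higher on Western diet when both groups had NaKtide. Fgr had 2.25, 3.86, 1.11, 1.79 and 1.7 CPM on control diet and 5.49, 4.1, 5.1, 6.84 and 7.17 on Western diet. The groups did not overlap, and the change was 1.43 ± 0.30 (adjusted p = 0.0026). Src had 1.27, 2.03, 0.317, 1.79 and 0.928 CPM against 2.47, 3.71, 1.88, 5.05 and 4.51, with 1 Western diet library inside the control range (1.44 ± 0.49, adjusted p = 0.037). They were 2 of 6 members tested, against 24.5% of all genes and 12.9% higher. Fyn came close in edgeR's test without passing (0.73 ± 0.28, adjusted p = 0.059). DESeq2 (adjusted p = 0.045) and voom (adjusted p = 0.006) called Fyn, and each called 3 members. Over all genes DESeq2 called 3585 and voom 5609. The Src call, on 2 to 15 and 7 to 19 counts per library, was lost without control-diet library 1 (adjusted p = 0.066), 3 (0.08) or 5 (0.082), or without Western diet library 2 (0.069), 4 (0.097) or 5 (0.081). The Kupffer cell markers summed to 110 to 241 CPM and 189 to 315 CPM in these groups, and the macrophage and monocyte markers to 214 to 404 and 527 to 655. Of 14 such macrophage and monocyte markers tested, 11 rose and 1 fell, against 12.9% and 11.7% of all genes. Other measures also lay apart between these groups. The cholangiocyte markers summed to 10.2 to 26.2 CPM on control diet and 65.2 to 277 on Western diet, the adipocyte markers to 104 to 222 and 281 to 394, and the mesothelial markers to 322 to 449 and 520 to 924. Krt19 is in both the cholangiocyte and the mesothelial list, so these sums are not separate measures. The mesothelial sum does not by itself show mesothelial cells in liver. Mitochondrial genes took 5.33 to 6.87% and 7.06 to 16.9% of counts. Their part in the Src and Fgr differences was not tested.

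Without NaKtide, Western diet gave 0 of 6 calls in liver in edgeR's test, against 8.44% of all genes. Src (1.29 ± 0.56, adjusted p = 0.16) and Fyn (0.73 ± 0.30, adjusted p = 0.14) were the 2 members with an unadjusted p under 0.05, and DESeq2 and voom called 0. Over all genes 23.3% had such an unadjusted p. In the first Western diet liver Src was at 5.61 CPM, and it lay between 0.988 and 1.75 in the others. NaKtide gave 0 of 6 on control diet (1.55% of all genes, 0 members at an unadjusted p under 0.05, and 0 by DESeq2 and voom). On Western diet it gave 0 of 6 (4.79%), with 2 at an unadjusted p under 0.05 (24.7% of all genes). There Fgr stood at 0.98 ± 0.29 (adjusted p = 0.054), DESeq2 called it alone among the members and voom called 3 members. Over all genes DESeq2 called 1068 and voom 3904. Without the first Western diet liver, Src (1.37 ± 0.43, adjusted p = 0.041) and Fgr (1.19 ± 0.30, adjusted p = 0.014) passed. The interaction gave 0 of 6 (5% of all genes), with 1 at an unadjusted p under 0.05 (28.1%), 0 by DESeq2 and 1 by voom. DESeq2 there called 1559 of all genes and voom 3243.

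Csk in liver stayed within a narrow band. Group means were 61.8 ± 5.39 to 74 ± 9.12 CPM, where Western diet gave the lowest and Western diet with NaKtide the highest (0.26 ± 0.11, adjusted p = 0.16). Voom called this last difference (0.31, adjusted p = 0.025). Lck had 1 to 9 counts in any liver library and was not tested within liver.

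The diet effects of liver and visceral fat were compared in the fit over all libraries. The effect without NaKtide was lower in liver for Fgr (-2.46 ± 0.60, adjusted p = 0.007), Lyn (-1.43 ± 0.37, adjusted p = 0.01) and Csk (-1.25 ± 0.24, adjusted p = 0.00088), and higher for Src (1.89 ± 0.55, adjusted p = 0.022). These were 4 of 7, against 10.4% of all genes. Without the tract-containing libraries 2 passed, Fgr and Csk, in a fit that called 757 genes. The Src difference was 1.51 ± 0.65 there (adjusted p = 0.21), and its call was also lost without the fifth control-diet liver (1.60, adjusted p = 0.059) or the first Western diet liver (1.18, adjusted p = 0.14). Voom and the fit without a filter on low counts lost the Src call as well. Of 6 alternative fits other than leaving out 1 library, 3 kept it. Lyn stood at -0.88 ± 0.28 (adjusted p = 0.064) without the tract-containing libraries.

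The NaKtide effect on Western diet was higher in liver than in visceral fat for Fgr (3.50 ± 0.59, adjusted p = 0.00014), Lyn (1.69 ± 0.37, adjusted p = 0.0019), Csk (1.30 ± 0.24, adjusted p = 0.00031) and Fyn (1.15 ± 0.31, adjusted p = 0.01), again 4 of 7 against 10.4%. All 4 passed without the tract-containing libraries, in a fit that called 1809 genes. Against subcutaneous fat, liver differed in the diet effect on Csk (-0.95 ± 0.24, adjusted p = 0.04), 1 of 7 against 0.699% of all genes. This call was lost in 15 of the 20 fits that left out 1 library, with adjusted p-values up to 0.11. The NaKtide effect on Western diet differed between liver and subcutaneous fat for 0 of 7 (0.066%). At an unadjusted p under 0.05 there were 2 members (7.94% of all genes), and DESeq2 called 0 members and voom 2. DESeq2 there called 282 of all genes and voom 1468.

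Between the fat depots no member's diet effect (0 of 7, 2.23% of all genes) or NaKtide effect on Western diet (0 of 7, 2.92%) differed past the threshold in edgeR's test. At an unadjusted p under 0.05 there were 2 and 4 members. DESeq2 called 2 and 3, and voom 1 and 5. Over all genes 20.7% and 21.3% had such an unadjusted p, DESeq2 called 1377 and 1572, and voom 653 and 4224. The nearest were the NaKtide effects on Fyn (-0.88 ± 0.26, adjusted p = 0.053) and Lyn (-1.43 ± 0.43, adjusted p = 0.059). Without the tract-containing libraries 3 members passed for the NaKtide effect, in a fit that called 1088 genes. They were Fyn (-1.08 ± 0.27, adjusted p = 0.019), Lyn (-1.56 ± 0.30, adjusted p = 0.0033) and Fgr (-2.59 ± 0.74, adjusted p = 0.036). The calls in visceral fat and their absence in subcutaneous fat therefore do not show by themselves that the depots differ.

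Genes whose pattern was most like each member were named by the mean of Pearson's r of log2 CPM within each tissue, each over 20 libraries. For Fgr they were Fermt3, the leukocyte kindlin (r of 0.88, 0.89 and 0.87 in liver, subcutaneous and visceral fat), Slc15a3 (0.82, 0.9 and 0.91) and Ncf4 of the phagocyte oxidase (0.84, 0.88 and 0.91). For Lyn they were Tifab, Esyt1 and Lasp1, each with a mean r of 0.8, and for Csk they were Ifnar1 (mean r of 0.77), Gna12 (0.74) and Mvp (0.73). Src was most like Usp12 (0.68, 0.72 and 0.76), then Abr and Bahd1. Fyn was most like Dchs1, Stard9 and Stk10 (mean r of 0.74 to 0.75), and Yes1 was most like Dram2, Dock9 and Xiap (mean r of 0.63 to 0.65). Lck was not tested in every tissue and has no such list.

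Among the members themselves, Lyn and Csk ran closest in visceral fat (r = 0.91), followed by Fgr and Csk (0.85) and Lyn and Fgr (0.77). In liver the closest were Src with Fgr (0.76) and Src with Fyn (0.72), where Lyn and Csk had 0.26. Src had -0.41 with Lyn, -0.3 with Fgr and -0.3 with Csk in visceral fat. Yes1 stayed between -0.41 and 0.18 with every other member tested. The libraries of a tissue share diets, NaKtide, depth and admixed tissue, so these values carry no test.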

How the data were processed

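Mouse liver and the subcutaneous and visceral fat depots were profiled by RNA-seq from paired 50-base reads (5 libraries in each of 12 groups, 60 in all). Per the submitters' processing notes the authors used Trimmomatic 0.38, HISAT2 2.1.0 and DESeq2 1.20.0 on GRCm38. For the counting program and annotation, no name is given in the sources used here. The authors deposited raw counts per gene, which were tested, and FPKM values, which were used to compare levels between genes. The deposited table of normalized counts was not used.

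Genes with low counts were removed by edgeR's filterByExpr by group, libraries were scaled by TMM, and edgeR 4.0.16 (R 4.3.3) was fitted with its quasi-likelihood test to each tissue (12991, 15226 and 17235 genes in liver, subcutaneous and visceral fat), to both fat depots (17788 genes) and to all libraries (18175 genes). P-values were adjusted by Benjamini-Hochberg over all genes tested, with a threshold of 0.05, in 25 comparisons. CPM are TMM-scaled within a tissue, and group means in fits across tissues use that fit's scaling. A standard error is the log2 change divided by the square root of the F statistic. The fit was also run on simulated counts that held no admixed tissue, so that run cannot show how the fit handles the tract and muscle RNA. Alternatives were limma 3.58.1 (voom with quality weights), DESeq2 1.42.0, other scaling and filters, a replicate block, and libraries left out. The share of Src, Fyn and Yes1 was computed from FPKM. Gene positions are from GENCODE and promoter windows from RefSeq (GRCm38.p6), with no window used here for Lyn.

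The members and lists were chosen with earlier results of these data known. From each pathway list up to 3 called genes with the smallest p were named per comparison, and for likeness the 3 genes with the highest mean r in log2 CPM (prior count 2). Frk was named outside this rule after its values were seen, and some genes of these lists are not reported here. Replicate numbers were checked for pairing in 16 comparisons, and in 0 did every same-number pair correlate above 0.1, so no block was used. The check cannot show that same-numbered libraries of different tissues came from different mice. No 2 libraries of a group were identical, and the lowest chi-square per degree of freedom between libraries of a group was 3.10. The series design counts 5 mice per experimental group, and the p-values measure the spread between libraries.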

Additional observations from a re-analysis of the deposited data

Results flagged for a closer look

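In 84 sets of 5 libraries (7 genes, 12 groups), 8 held a library far from the others by Dixon's test, where chance marks about 1 in 20 sets. Src was at 5.61 CPM in the first Western diet liver against 0.988 to 1.75 in the others. In subcutaneous fat on Western diet with NaKtide, Src was at 39.8 CPM in library 4 (others 13.9 to 18.8), Fyn at 17.3 in library 3 (others 26.9 to 28.3) and Yes1 at 14 in library 5 (others 6.7 to 8.78). In visceral fat on control diet with NaKtide, library 1, which held tract tissue, was low for Fgr (5.43 CPM, others 8.27 to 9.24) and Csk (83.3, others 114 to 122). Lck was high in library 2 of subcutaneous fat on Western diet (30.2 CPM, others 2.55 to 6.57) and in library 1 of visceral fat on Western diet (16, others 4.42 to 7.04).

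The test of the difference between effects was passed 14 times. In visceral fat the diet effect differed by NaKtide for Fyn (-0.905), Lyn (-2.626), Fgr (-4.854), Lck (-2.697) and Csk (-1.948). The diet effect in liver minus that in subcutaneous fat was -0.949 for Csk. Liver minus visceral fat, it was 1.888 for Src, -1.425 for Lyn, -2.458 for Fgr and -1.251 for Csk. The NaKtide effect on Western diet, liver minus visceral fat, was 1.147 for Fyn, 1.688 for Lyn, 3.497 for Fgr and 1.301 for Csk. All are log2 differences.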

How the results depend on the processing

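Of 41 member results called by edgeR's quasi-likelihood test, 32 passed in each fit that left out 1 library, 26 passed in each other alternative run, and 0 reversed. Outside these, 29 uncalled member results were called under an alternative other than leaving out 1 library. Values below count members called, with the number of the reported fit first. Leaving out the 8 tract-containing visceral libraries gave 2 and 4 for visceral diet under NaKtide, 2 and 4 for NaKtide on control diet, 1 and 0 for the depots on control diet, 0 and 2 for the depots on Western diet, 0 and 3 for the depot difference in NaKtide effect, and 4 and 2 for the liver minus visceral diet effect. Among all visceral genes, diet then called 2923 (1580 higher) in place of 4287 (1816 higher). Diet under NaKtide then called 2434 in place of 830, and NaKtide on control diet 2288 in place of 1233. Without a filter on low counts the number was 0 for subcutaneous diet (reported 1), 1 for visceral diet under NaKtide (2), 1 for visceral NaKtide on control diet (2) and 0 for the liver minus subcutaneous diet effect (1). DESeq2 gave 1 for liver NaKtide on Western diet (0), 4 for visceral NaKtide on control diet (2), 2 for the depots on Western diet (0), and 2 and 3 for the depot differences in diet and NaKtide effects (0 and 0). Voom gave 3 for liver NaKtide on Western diet (0), 1 for the liver interaction (0), 3 for subcutaneous diet (1), 4 and 4 for visceral diet under NaKtide and NaKtide on control diet (2 and 2), 5 for the depots on Western diet (0), 1 and 5 for the depot differences (0 and 0), and 2 for the liver minus subcutaneous NaKtide effect (0). Of all genes voom called 3717 for subcutaneous diet, 3299 for visceral diet under NaKtide and 3571 for visceral NaKtide on control diet. In the last of these DESeq2 called 2919. DESeq2's scaling within edgeR gave 1 for liver NaKtide on Western diet (0) and 2 for the depot difference in NaKtide effect (0). With the muscle covariate subcutaneous diet gave 0 (1), and without both first Western diet livers liver NaKtide on Western diet gave 2 (0). With a replicate block liver diet under NaKtide gave 1 (2) and the liver minus subcutaneous diet effect 0 (1). Of 80 same-number pairs 18 correlated above 0.1, which does not settle whether the replicate numbers pair the samples. The cause of these shifts was not tested.

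Leaving out 1 library at a time gave 1 to 3 members for liver diet under NaKtide, 0 to 2 for liver NaKtide on Western diet, 0 to 1 for subcutaneous diet with and without NaKtide, 4 to 5 for visceral diet, 1 to 3 for visceral diet under NaKtide and for NaKtide on control diet, and 5 to 5 for visceral NaKtide on Western diet and for the visceral interaction. For the depots it gave 1 to 2 on control diet, and 0 to 1 and 0 to 3 for the differences in diet and NaKtide effects. Liver against subcutaneous fat gave 4 to 5, liver against visceral fat 3 to 5, and the liver minus subcutaneous diet effect 0 to 1. The liver minus visceral effects gave 3 to 4 for diet and 4 to 5 for NaKtide. Over all genes in subcutaneous fat DESeq2 called 1194 for diet under NaKtide, 194 for NaKtide on Western diet and 56 for the interaction, and voom 592, 638 and 0, where edgeR called 0 in each. Depth limits Src, Fgr and Lck most, which had as few as 1, 5 and 1 counts in control-diet livers.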
